A study of Arabidopsis thaliana with 12 samples.

Results

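Arabidopsis thaliana moves sodium, potassium and protons with a known set of carriers, channels and pumps, and 49 genes of that set were followed here in leaf RNA-seq libraries. The genes were taken as a list of locus identifiers, made up of the SOS pathway, HKT1, the NHX, KUP/HAK, CHX and KEA families, potassium channels, proton pumps, and CLC and SLAC anion channels. All 49 were among the 33597 named genes of the count table, and 47 passed edgeR's filter on low counts and were tested with 18886 genes in all. HKT1 and SKOR did not pass it.

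The 12 libraries came from rosette leaves 3 and 4 of the Col ecotype, with 3 replicates in each of 4 groups. The groups were ERF34 overexpressor leaves in 100 mM NaCl, overexpressor leaves under mock, wild-type leaves in NaCl and wild-type leaves under mock. ERF34 is an AP2/ERF-type transcription factor. The overexpressor was line #1, which carries the ERF34 coding sequence with a GFP tag at the N-terminus and is driven by the CsVMV promoter, a viral promoter that is active in most tissues. It is 1 transgenic line, so the transgene and other features of that line cannot be told apart. For NaCl, leaves cut off at 16 DAE lay for 1 day on a solution with 3 mM MES at pH 5.8. The labels repeat this 1 treatment text, with NaCl in it, for the mock samples too and describe no separate mock handling. Whether mock leaves were also cut off and floated is therefore not known here, and salt and leaf detachment cannot be told apart in the salt comparisons. The labels describe the replicates as independent biological ones.

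Sodium that enters leaf cells competes with potassium, and plants keep it out of the cytosol by export and by storage in the vacuole. The SOS pathway exports it: a calcium sensor (SOS3 in roots, CBL10 in shoots) recruits the kinase SOS2, which activates the plasma membrane Na+/H+ antiporter SOS1. HKT1 takes sodium out of the xylem sap, and NHX antiporters load sodium and potassium into vacuoles and other compartments in exchange for protons. The proton gradients that drive these carriers are made by the AHA pumps at the plasma membrane and by AVP1 and the vacuolar ATPase at the vacuole. KUP/HAK carriers and shaker channels move potassium, KEA antiporters exchange potassium for protons, and anion channels carry the nitrate and chloride that balance the cations.

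Library totals over named genes were 11361715 to 12358362 counts in overexpressor NaCl, 10425430 to 12704898 in overexpressor mock, 14301312 to 18398594 in wild-type NaCl and 15389027 to 16704329 in wild-type mock. Every overexpressor library was shallower than every wild-type library. Levels are given as CPM, counts scaled to a common library total, with TMM-scaled library sizes. ERF34 itself had 769, 1028 and 1007 CPM in overexpressor NaCl and 998, 1074 and 1082 CPM in overexpressor mock, against 16.5, 5.94 and 16.7 CPM in wild-type NaCl and 9.58, 2.96 and 13.9 CPM in wild-type mock. The 4 mesophyll markers summed to 11313 to 12921, 11184 to 13445, 8273 to 9981 and 12582 to 13055 CPM in the same order of groups. The 4 root and flower markers summed to at most 6.90 CPM in any library.

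The genes with the largest salt changes in both genotypes are shown first by the DNA in front of them. The sequences are the 250 bases before the RefSeq gene start of HAK5, KUP1, CHX18 and SLAH3, read 5′ to 3′ on the gene's strand in assembly TAIR10.1. These 4 were called in both genotypes with a log2 fold change of at least 1 in size, and they are shown so that windows of genes moving up and down can be compared. Capitals mark the ABRE core ACGTG, bound by bZIP factors of abscisic acid signalling, and the W-box core TTGAC, bound by WRKY factors, which reads GTCAA where it lies on the other strand.
HAK5, chr4:7802252-7802501, minus strand: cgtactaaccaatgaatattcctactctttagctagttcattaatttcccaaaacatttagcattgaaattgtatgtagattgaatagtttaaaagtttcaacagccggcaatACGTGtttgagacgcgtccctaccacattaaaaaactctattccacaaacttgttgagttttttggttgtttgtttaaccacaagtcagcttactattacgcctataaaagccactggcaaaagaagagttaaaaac
KUP1, chr2:12834571-12834820, plus strand: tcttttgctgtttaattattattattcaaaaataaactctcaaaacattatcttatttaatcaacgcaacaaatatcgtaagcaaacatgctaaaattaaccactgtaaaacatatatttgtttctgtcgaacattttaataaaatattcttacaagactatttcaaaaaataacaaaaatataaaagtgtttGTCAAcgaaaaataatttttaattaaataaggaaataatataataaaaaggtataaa
CHX18, chr5:16641934-16642183, minus strand: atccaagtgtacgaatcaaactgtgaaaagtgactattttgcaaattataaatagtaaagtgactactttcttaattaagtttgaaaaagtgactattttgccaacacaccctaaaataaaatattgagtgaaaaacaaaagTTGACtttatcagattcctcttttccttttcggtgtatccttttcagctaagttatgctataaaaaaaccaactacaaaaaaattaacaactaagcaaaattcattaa
SLAH3, chr5:8122915-8123164, minus strand: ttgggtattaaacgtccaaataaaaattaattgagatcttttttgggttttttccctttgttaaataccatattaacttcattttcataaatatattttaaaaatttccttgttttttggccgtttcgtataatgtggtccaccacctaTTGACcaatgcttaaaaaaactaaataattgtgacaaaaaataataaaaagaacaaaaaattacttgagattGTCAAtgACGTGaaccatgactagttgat
The HAK5 window held 1 ABRE core and no W-box core. KUP1 and CHX18 each held 1 W-box core, and SLAH3 held 2 W-box cores and 1 ABRE core. None of the 4 windows overlapped another gene.

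Over all 49 genes, the ABRE core was found in 13 windows (26.5%), against 22.9% of the same windows of 27443 protein-coding genes, with both strands searched. The W-box core was found in 21 windows (42.9%), against 44.9%. The DRE core CCGAC, bound by DREB factors, was found in 6 windows (12.2%), against 12.0%. The GCC box GCCGCC, bound by many ERF factors, was found in 0 of 49 windows, against 1.87%. A match is a run of letters in this window and not a measured binding site.

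Between NaCl and mock, 10 of the 47 tested genes were called in overexpressor leaves and 20 of 47 in wild-type leaves. In the overexpressor, NHX4, KUP1, KUP5, CHX18 and SLAH3 rose, and HAK5, AT1G60160, CHX16, KEA1 and AHA2 fell. In wild type, NHX4, KUP1, KUP5, KUP7, KUP11, CHX18, KC1 and SLAH3 rose, and CBL10, HAK5, KUP2, KUP3, AT1G60160, KEA1, KEA3, AKT2, GORK, AHA3, AVP1 and SLAC1 fell. The genotypes shared 8 of these genes, all changed in the same direction: 5 rose and 3 fell. No share of all genes is given here for this overlap, so it is not read as a property of the list. A gene is called, and said to rise or fall, when its adjusted p was under 0.05 in edgeR's quasi-likelihood test, with Benjamini-Hochberg adjustment over all 18886 genes. All adjusted p-values below are from that test unless DESeq2 is named, and log2 fold changes are NaCl over mock or overexpressor over wild type.

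The counts called in each genotype were close to the background of all genes. Of all genes tested, 18.3% were called in the overexpressor (9.72% higher, 8.55% lower) against 21.3% of the listed genes, and 41.4% in wild type (20.3% higher, 21.1% lower) against 42.6%. The median log2 fold change of the 47 genes was -0.11 in the overexpressor and -0.12 in wild type, against 0.02 and -0.01 over all genes. Groups did not overlap for 20 of 47 genes in the overexpressor, where 37% of all genes did not overlap, and for 27 of 47 in wild type, where 52.3% did not. Libraries with the same replicate number deviated together within each genotype. With the replicate number as a block the overexpressor calls became 18 of 47, or 38.3% (6 higher, 12 lower), against 28.2% of all genes in either direction. The genes added there were KUP3, KUP11, KEA3, AKT1, AKT2, AHA1, AHA3 and CLC-C, and all 10 others were called again.

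**Figure D1:**
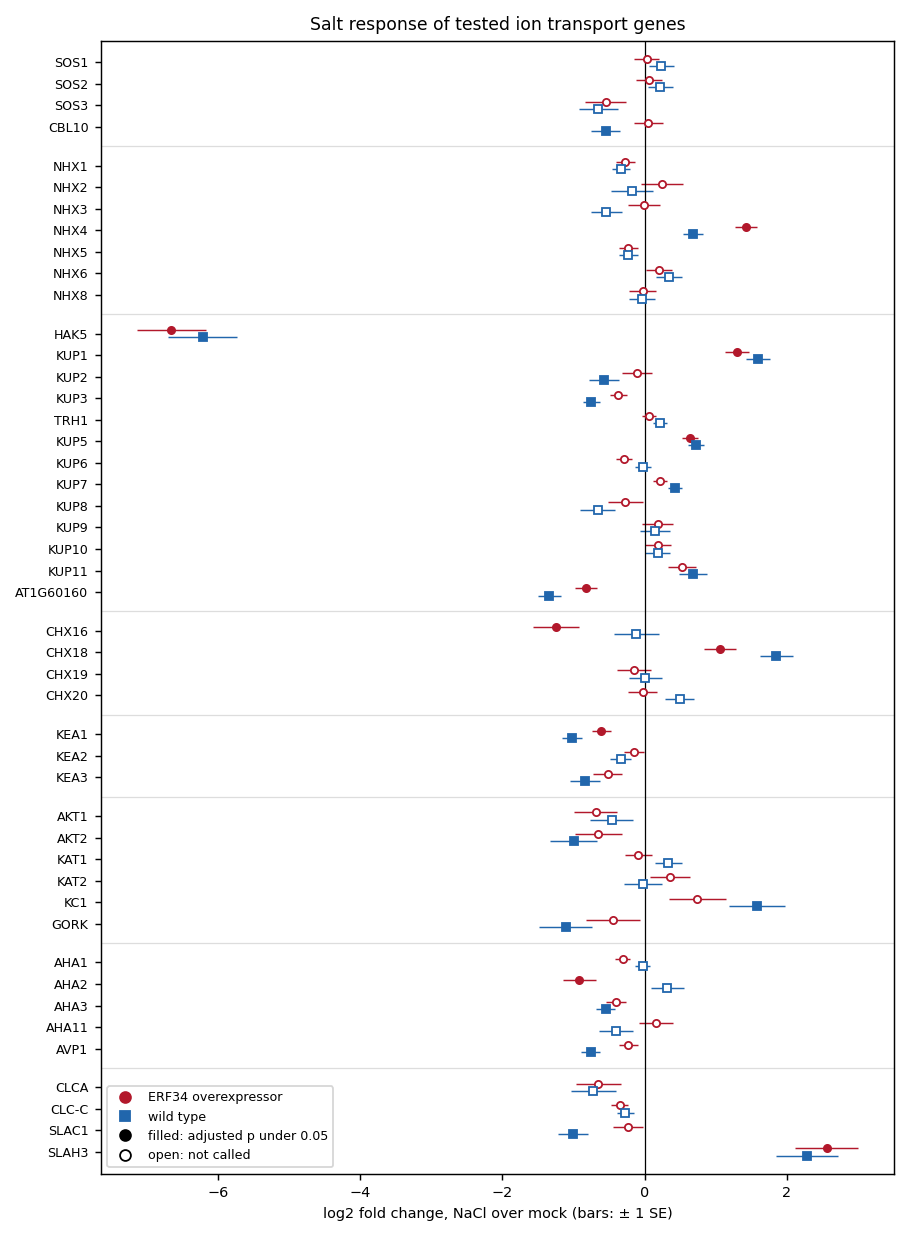
Log2 fold change of NaCl over mock (horizontal axis, bars ± 1 SE) for the tested genes reported here, grouped by family, in the ERF34 overexpressor (red circles) and wild type (blue squares). Filled symbols have an adjusted p under 0.05. HAK5 stands alone at -6.65 and -6.21, and SLAH3 lies farthest to the right at 2.56 and 2.28.

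Of the 4 genes of the SOS pathway, CBL10 (AT4G33000) was called, in wild type, and no other. SOS1 (AT2G01980) had 24.8, 24.4 and 31.4 CPM in overexpressor NaCl, against 28.4, 21.8 and 28.6 CPM in overexpressor mock. In wild type it had 27.6, 29.0 and 30.4 CPM in NaCl, against 25.8, 18.8 and 29.5 CPM in mock. The groups overlapped in both genotypes, with log2 fold changes of 0.03 (SE 0.177, adjusted p = 0.923) in the overexpressor and 0.23 (SE 0.176, adjusted p = 0.319) in wild type.

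The kinase SOS2 (AT5G35410) had 5.08, 6.25 and 7.47 CPM in overexpressor NaCl, against 5.90, 5.47 and 6.62 CPM in overexpressor mock. It had 6.08, 7.36 and 8.13 CPM in wild-type NaCl, against 6.61, 5.61 and 6.26 CPM in wild-type mock. The groups overlapped, and the log2 fold changes were 0.06 (SE 0.179, adjusted p = 0.842) and 0.22 (SE 0.175, adjusted p = 0.326). The calcium sensor SOS3 (AT5G24270) had 2.17, 4.23 and 4.92 CPM in overexpressor NaCl, against 6.20, 4.29 and 5.99 CPM in overexpressor mock. In wild type it had 4.37, 3.94 and 3.31 CPM in NaCl, against 5.88, 7.22 and 5.14 CPM in mock. The wild-type groups did not overlap, but neither change was called (log2 -0.55, SE 0.286, adjusted p = 0.204 in the overexpressor; log2 -0.65, SE 0.278, adjusted p = 0.0831 in wild type). Without overexpressor NaCl replicate 1, a library outside the wild-type groups, the SOS3 change in wild type was called (adjusted p = 0.0253). Such a library enters the wild-type test through the filter, the TMM factors, the shared spread and the adjustment.

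CBL10, the shoot counterpart of SOS3, had 10.5, 12.5 and 16.2 CPM in overexpressor NaCl, against 12.6, 10.3 and 14.7 CPM in overexpressor mock. It had 9.35, 7.59 and 10.8 CPM in wild-type NaCl, against 14.0, 11.5 and 15.2 CPM in wild-type mock, and there every NaCl library lay below every mock library. The log2 fold change was 0.05 (SE 0.203, adjusted p = 0.882) in the overexpressor and -0.55 (SE 0.203, adjusted p = 0.0479) in wild type. That call lay at the threshold: adjusted p was 0.0511 to 0.156 when any 1 of these libraries was left out: wild-type mock replicates 1 and 3, wild-type NaCl replicates 1 and 2, overexpressor mock replicates 1 and 3, and overexpressor NaCl replicate 2. It was also lost with RLE factors (0.0513), without the filter (0.0569) and with only the wild-type groups fitted (0.0604).

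HKT1 (AT4G10310), the sodium carrier of the xylem parenchyma, was all but undetected in these leaves. It had 0 counts over the 3 overexpressor NaCl libraries, against 1 count in overexpressor mock, and 1 count over the wild-type NaCl libraries, against 0 in wild-type mock. A count of 0 over a group allowed up to 0.0812 CPM in overexpressor NaCl and up to 0.0641 CPM in wild-type mock, taking 3 counts as the limit, which covers counting error only. No change with salt could be measured at this depth.

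Among the 7 NHX antiporters, NHX4 (AT3G06370) rose in both genotypes and the other 6 were called in neither. NHX4, a vacuolar Na+,K+/H+ antiporter, had 6.72, 6.87 and 6.40 CPM in overexpressor NaCl, against 2.37, 2.73 and 2.36 CPM in overexpressor mock. In wild type it had 4.85, 5.83 and 5.10 CPM in NaCl, against 3.30, 3.48 and 3.04 CPM in mock. No NaCl library reached down to a mock library in either genotype. The rise was 2.68-fold in the overexpressor (log2 1.42, SE 0.152, adjusted p = 0.000481) and 1.61-fold in wild type (log2 0.68, SE 0.146, adjusted p = 0.00388). The difference between these responses was log2 0.74 (SE 0.210) and was not called (adjusted p = 0.16).

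NHX1 (AT5G27150), a vacuolar antiporter and the NHX gene with the highest level per kb of exon in every group, had 89.8, 89.1 and 92.7 CPM in overexpressor NaCl, against 120.4, 105 and 102 CPM in overexpressor mock. It had 80.7, 71.3 and 76.9 CPM in wild-type NaCl, against 112, 83.6 and 91.4 CPM in wild-type mock. Every NaCl library lay below every mock library within each genotype, but neither change was called (log2 -0.27, SE 0.127, adjusted p = 0.167 in the overexpressor; log2 -0.33, SE 0.127, adjusted p = 0.0596 in wild type). The wild-type value was called with the replicate block (log2 -0.32, adjusted p = 0.0247), with upper quartile factors (0.0375) and without wild-type mock replicate 2 (0.0297). The other 5 were the vacuolar NHX2 (AT3G05030) and NHX3 (AT5G55470), the endosomal NHX5 (AT1G54370) and NHX6 (AT1G79610), and NHX8 (AT1G14660), a close relative of SOS1. Their log2 fold changes spanned -0.23 to 0.24 in the overexpressor and -0.54 to 0.34 in wild type.

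The KUP/HAK potassium carriers held the largest fall of the list. HAK5 (AT4G13420), the high-affinity uptake carrier that roots make when potassium is scarce, had 0.0747, 0.088 and 0.164 CPM in overexpressor NaCl, against 11.9, 13.7 and 9.85 CPM in overexpressor mock. It had 0.137, 0.0588 and 0.0561 CPM in wild-type NaCl, against 8.19, 8.31 and 3.47 CPM in wild-type mock. The transcript was thus nearly absent from all 6 NaCl libraries and present in all 6 mock libraries. NaCl libraries held 4 counts in all against 420 in mock in the overexpressor, a level 108-fold lower (95% exact counting interval 41.8 to 397), and 4 against 309 in wild type, 81.7-fold lower (31.6 to 302). These intervals cover counting error only and leave out the spread between libraries. The fitted values were log2 -6.65 (SE 0.483, adjusted p = 8.96e-05) in the overexpressor and log2 -6.21 (SE 0.484, adjusted p = 2.47e-05) in wild type, and both were called under all 18 alternatives.

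KUP1 (AT2G30070), a potassium carrier, rose in both genotypes. It had 33.2, 24.2 and 31.2 CPM in overexpressor NaCl, against 14.0, 10.5 and 11.4 CPM in overexpressor mock. It had 36.6, 28.8 and 33.5 CPM in wild-type NaCl, against 11.4, 9.22 and 12.2 CPM in wild-type mock, so no groups overlapped. The rise was 2.46-fold in the overexpressor (log2 1.3, SE 0.171, adjusted p = 0.00133) and 3.01-fold in wild type (log2 1.59, SE 0.171, adjusted p = 9.71e-05).

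AT1G60160, which RefSeq describes as a potassium transporter family protein, fell in both genotypes. It had 19.4, 17.8 and 25.9 CPM in overexpressor NaCl, against 41.0, 36.1 and 35.1 CPM in overexpressor mock. It had 13.7, 17.9 and 16.8 CPM in wild-type NaCl, against 43.7, 40.2 and 38.6 CPM in wild-type mock, and again no groups overlapped. The fall was 1.78-fold in the overexpressor (log2 -0.83, SE 0.156, adjusted p = 0.00667) and 2.53-fold in wild type (log2 -1.34, SE 0.157, adjusted p = 0.00014).

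KUP5 (AT4G33530), which carries potassium across membranes and also holds an adenylate cyclase domain, was the other KUP gene called in both genotypes. It averaged 75.5 ± 1.40 CPM in overexpressor NaCl and 48.9 ± 1.37 CPM in overexpressor mock (SD, n = 3 each), and 73.5 ± 2.78 CPM in wild-type NaCl and 44.5 ± 6.57 CPM in wild-type mock. The rises were log2 0.63 (SE 0.112, adjusted p = 0.0054) and log2 0.72 (SE 0.112, adjusted p = 0.000617). KUP3 (AT3G02050) averaged 54.4 ± 7.56 CPM in overexpressor NaCl and 70.4 ± 2.96 CPM in overexpressor mock, and 43.6 ± 2.18 CPM in wild-type NaCl and 73.6 ± 6.89 CPM in wild-type mock. KUP3 fell in wild type (log2 -0.75, SE 0.122, adjusted p = 0.000809); in the overexpressor log2 -0.37 was not called (adjusted p = 0.0581), but it was with the replicate block (0.0341), with DESeq2 (0.0299) and without overexpressor NaCl replicate 1 (0.0485).

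The remaining wild-type calls in this family were smaller. KUP7 (AT5G09400) rose by log2 0.42 (SE 0.0991, adjusted p = 0.00648) and KUP11 (AT2G35060) by log2 0.68 (SE 0.197, adjusted p = 0.0184). KUP2 (AT2G40540), which acts in cell expansion, fell (log2 -0.57, SE 0.206, adjusted p = 0.0463), and its call was lost (adjusted p 0.0529 to 0.155) without any 1 of 8 libraries: wild-type mock replicates 1 and 3, wild-type NaCl replicates 1 to 3, overexpressor mock replicates 1 and 3, and overexpressor NaCl replicate 1. It was also lost with RLE factors (0.0504), without the filter (0.0551) and with only the wild-type groups fitted (0.0597). The KUP11 call was lost without wild-type mock replicate 1 (0.0528), wild-type mock replicate 2 (0.0588) or wild-type NaCl replicate 3 (0.0647). In the overexpressor KUP11 was at log2 0.53 (adjusted p = 0.0871), called with the block (0.0232) and without overexpressor NaCl replicate 2 (0.0359). The other 5 carriers, TRH1 (AT4G23640), KUP6 (AT1G70300), KUP8 (AT5G14880), KUP9 (AT4G19960) and KUP10 (AT1G31120), were called in neither genotype. Of these, KUP8 had log2 -0.66 in wild type (adjusted p = 0.0537) and was called with the block (log2 -0.64, adjusted p = 0.000931). It was also called there with upper quartile factors (0.0425), with DESeq2 (0.0499) and without wild-type mock replicate 2 (0.0182), overexpressor NaCl replicate 1 (0.0444) or overexpressor NaCl replicate 2 (0.0393).

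**Figure D2:**
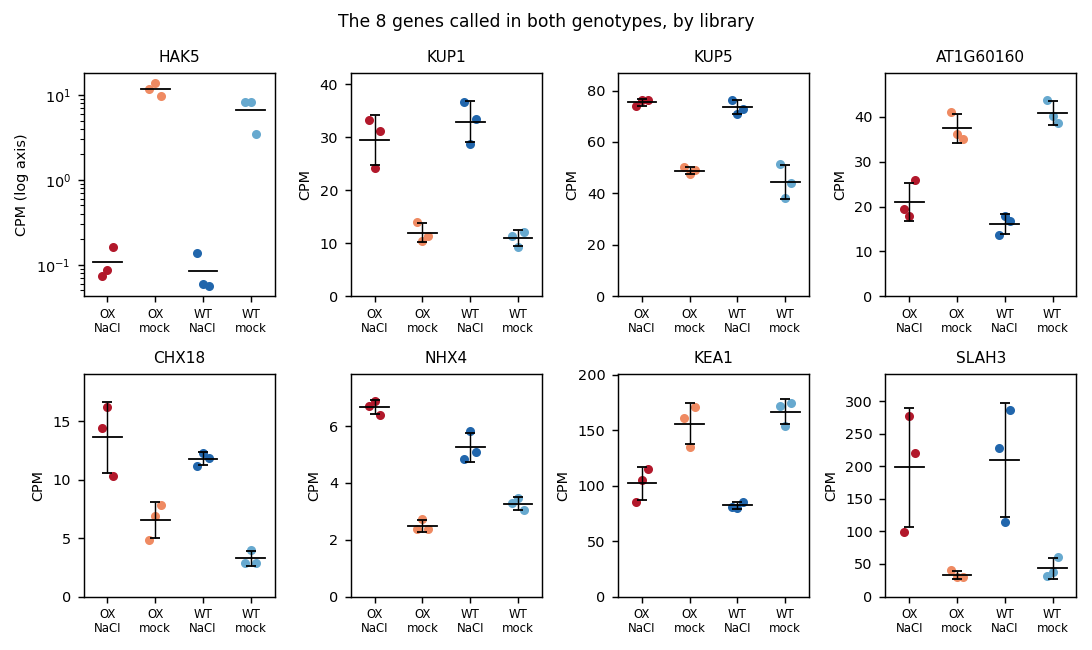
CPM in each library (points) for the 8 genes called in both genotypes, with the group mean (line) and, on linear axes, ± 1 SD (n = 3). Groups run from overexpressor NaCl to wild-type mock, and the HAK5 axis is logarithmic. NaCl and mock points are separate within each genotype in every panel, and HAK5 points lie at 0.0561 to 0.164 CPM in NaCl, against 3.47 to 13.7 CPM in mock.

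Of the 4 CHX cation/H+ exchangers, CHX18 (AT5G41610) rose in both genotypes and CHX16 (AT1G64170) fell in the overexpressor. CHX18 had 14.4, 16.2 and 10.3 CPM in overexpressor NaCl, against 4.83, 6.93 and 7.88 CPM in overexpressor mock. In wild type it had 11.2, 12.3 and 11.9 CPM in NaCl, against 2.91, 4 and 2.91 CPM in mock. The rise was 2.08-fold in the overexpressor (log2 1.06, SE 0.221, adjusted p = 0.01) and 3.60-fold in wild type (log2 1.85, SE 0.227, adjusted p = 0.000174), with no overlap of groups. Of the CHX18 exon sequence, 87.4% lies opposite the antisense gene AT5G41612, and the strand setting of the counting is not given in the sources used here. AT5G41612 averaged 3.40 ± 0.993 CPM in overexpressor NaCl and 3.54 ± 0.546 CPM in overexpressor mock (SD, n = 3 each), and 2.81 ± 0.821 and 3.70 ± 0.827 CPM in wild-type NaCl and mock, and was called in neither genotype.

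CHX16 had 20.3, 25.1 and 21.2 CPM in overexpressor NaCl, against 68.4, 29.5 and 59.3 CPM in overexpressor mock. It had 26.8, 43.0 and 23.3 CPM in wild-type NaCl, against 38.1, 24.7 and 38.0 CPM in wild-type mock. The overexpressor groups did not overlap, though mock replicate 2 lay near the NaCl values, and the wild-type groups overlapped. The fall in the overexpressor was 2.36-fold (log2 -1.24, SE 0.323, adjusted p = 0.0254), and it was not called without overexpressor mock replicate 1 (0.096), mock replicate 3 (0.0832), NaCl replicate 1 (0.0706), NaCl replicate 2 (0.0541) or NaCl replicate 3 (0.0683). The wild-type change was log2 -0.12 (adjusted p = 0.796), and the difference between the responses, log2 -1.13, was not called (SE 0.451, adjusted p = 0.305). CHX19 (AT3G17630) and CHX20 (AT3G53720), a guard cell exchanger, were called in neither genotype; CHX20 in wild type was at log2 0.49 (adjusted p = 0.0754) and was called with the block (0.0177) and without wild-type NaCl replicate 1 (0.0129).

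The KEA antiporters sit in the chloroplast: KEA1 (AT1G01790) and KEA2 (AT4G00630) in the inner envelope and KEA3 (AT4G04850) in the thylakoid membrane. KEA1 had 85.5, 105 and 115 CPM in overexpressor NaCl, against 161, 135 and 171 CPM in overexpressor mock. It had 80.7, 79.9 and 85.6 CPM in wild-type NaCl, against 172, 154 and 174 CPM in wild-type mock, and all NaCl libraries lay below all mock libraries. It fell 1.53-fold in the overexpressor (log2 -0.61, SE 0.137, adjusted p = 0.0135) and 2.03-fold in wild type (log2 -1.02, SE 0.138, adjusted p = 0.000286). The overexpressor call was lost without overexpressor mock replicate 3 (0.0585) and with only the overexpressor groups fitted (0.0609). KEA3 fell in wild type (log2 -0.84, SE 0.205, adjusted p = 0.0078) and was at log2 -0.52 in the overexpressor (adjusted p = 0.102; 0.0365 with the block). KEA2 was called in neither genotype (log2 -0.15 in the overexpressor and -0.34 in wild type); with upper quartile factors it was called in wild type (0.0473). Of 4 mesophyll markers, LHCB2.1 and CA1 fell in wild type (log2 -0.57, adjusted p = 0.0177, and log2 -1.42, adjusted p = 0.00063). RBCS1A and LHCB1.3 were not called there (log2 -0.22 and -0.20). None of the 4 was called in the overexpressor, where LHCB2.1 and CA1 were at log2 -0.17 and -0.62, and RBCS1A and LHCB1.3 at 0.09 and 0.10. In bulk leaves, fewer cells of a type and less RNA per cell cannot be told apart, and the part of cell makeup in these results was not tested.

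Of the 7 tested potassium channel genes, 3 were called, all in wild type. KC1 (AT4G32650), the silent subunit that tunes AKT1 (AT2G26650) and KAT channels, had 8.52, 19.7 and 23.1 CPM in overexpressor NaCl, against 11.7, 8.69 and 10.2 CPM in overexpressor mock. It had 22.6, 19.5 and 47.5 CPM in wild-type NaCl, against 9.38, 8.64 and 12.0 CPM in wild-type mock. The wild-type groups did not overlap and the overexpressor groups did. KC1 rose 2.99-fold in wild type (log2 1.58, SE 0.396, adjusted p = 0.00922), and by log2 1.07 (adjusted p = 0.0363) without wild-type NaCl replicate 3, the highest library. In the overexpressor it was at log2 0.74 (SE 0.398, adjusted p = 0.22).

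AKT2 (AT4G22200), a channel of the phloem and mesophyll, had 22.9, 12.8 and 27.3 CPM in overexpressor NaCl, against 39.1, 23.5 and 36.3 CPM in overexpressor mock. It had 16.8, 11.6 and 21.6 CPM in wild-type NaCl, against 39.3, 23.6 and 37.5 CPM in wild-type mock. Replicate 2 was the lowest library in all 4 groups, and the wild-type groups did not overlap. AKT2 fell 2.01-fold in wild type (log2 -1, SE 0.329, adjusted p = 0.0315), a call lost without wild-type mock replicate 1 (0.0957), mock replicate 3 (0.0869), NaCl replicate 1 (0.0724) or NaCl replicate 2 (0.105). In the overexpressor it was at log2 -0.65 (adjusted p = 0.193) and called with the block (log2 -0.68, adjusted p = 0.00467). Of 5 phloem markers, 2 fell in the overexpressor and 4 in wild type. APL went the other way and was not called (log2 0.06 in the overexpressor and 0.24 in wild type). The summed level of the 5 was 664 to 902 CPM in overexpressor NaCl against 1141 to 1191 CPM in overexpressor mock, and 669.6 to 727 CPM in wild-type NaCl against 1117 to 1307 CPM in wild-type mock. Most of that sum was SUC2 and SWEET11. The part of the phloem markers in the AKT2 result was not tested.

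GORK (AT5G37500), the outward potassium channel of guard cells and root hairs, was scarce. It had 1.20, 1.23 and 1.23 CPM in overexpressor NaCl, against 0.996, 1.95 and 2.05 CPM in overexpressor mock. It had 0.819, 1.06 and 0.785 CPM in wild-type NaCl, against 1.06, 2.06 and 2.66 CPM in wild-type mock, where NaCl replicate 2 and mock replicate 1 met. The wild-type fall was 2.16-fold (log2 -1.11, SE 0.369, adjusted p = 0.0326). It was lost with only the wild-type groups fitted (0.0681) and without wild-type mock replicate 2 (0.0698), mock replicate 3 (0.136), NaCl replicate 1 (0.0826) or NaCl replicate 3 (0.0958). In the overexpressor GORK was at log2 -0.44 (adjusted p = 0.445).

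The inward guard cell channels KAT1 (AT5G46240) and KAT2 (AT4G18290) and the root uptake channel AKT1 were called in neither genotype. Their log2 fold changes were -0.69 to 0.36 in the overexpressor and -0.46 to 0.33 in wild type, with AKT1 lowest in both. With the replicate block AKT1 was called lower in both genotypes (log2 -0.73, adjusted p = 0.00656 in the overexpressor; log2 -0.47, adjusted p = 0.0184 in wild type). SKOR (AT3G02850), the channel that loads potassium into the root xylem, did not pass the filter. It held 11 counts over overexpressor NaCl against 17 over overexpressor mock, and 5 over wild-type NaCl against 31 over wild-type mock. Tested without the filter it was at log2 -0.63 in the overexpressor (adjusted p = 0.673) and log2 -2.60 in wild type (adjusted p = 0.0407), and with DESeq2 at log2 -2.67 in wild type (adjusted p = 0.0305).

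Among the anion channels, SLAH3 (AT5G24030) rose in both genotypes. SLAH3, a nitrate and chloride channel of guard cells and roots, had 98.6, 277 and 219.8 CPM in overexpressor NaCl, against 40.9, 29.8 and 30.0 CPM in overexpressor mock. It had 228, 114 and 287 CPM in wild-type NaCl, against 31.4, 37.0 and 61.0 CPM in wild-type mock. NaCl libraries differed from each other by more than 2-fold, and all lay above all mock libraries. The rise was 5.91-fold in the overexpressor (log2 2.56, SE 0.442, adjusted p = 0.00485) and 4.86-fold in wild type (log2 2.28, SE 0.436, adjusted p = 0.0022).

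SLAC1 (AT1G12480), the anion channel that closes stomata, had 9.11, 7.92 and 11.2 CPM in overexpressor NaCl, against 9.80, 9.57 and 13.8 CPM in overexpressor mock. It had 4.30, 5.30 and 6.22 CPM in wild-type NaCl, against 11.8, 8.70 and 11.6 CPM in wild-type mock. The overexpressor groups overlapped and the wild-type groups did not. SLAC1 fell 2.02-fold in wild type (log2 -1.01, SE 0.212, adjusted p = 0.00338), and in the overexpressor it was at log2 -0.23 (SE 0.209, adjusted p = 0.463). The difference between the responses, log2 0.78, was not called (SE 0.297, adjusted p = 0.282). Of its exon sequence, 36.3% lies opposite the antisense gene AT1G04953, which was not analysed here.

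Guard cell markers were measured beside SLAC1 and GORK. None of 5 was called in the overexpressor. FAMA, SCAP1 and CYP86A2 were at log2 0.23, 0.41 and 0.08 there, and MYB60 and HT1 at log2 -0.74 and -0.13. In wild type 2 of 5 (40%) fell, where 21.1% of all genes fell: MYB60 (log2 -1.74, adjusted p = 0.00305) and HT1 (log2 -0.70, adjusted p = 0.0106). FAMA went the other way there and was not called (log2 0.13, adjusted p = 0.631). SCAP1 and CYP86A2 were at log2 -0.37 and -0.64 in wild type, not called. The summed level of the 5 was 186 to 266 CPM in overexpressor NaCl against 198 to 240.4 CPM in overexpressor mock, and 82.6 to 163 CPM in wild-type NaCl against 154 to 249 CPM in wild-type mock. Most of that sum was CYP86A2, which was called in neither genotype and had 167 to 251 CPM in overexpressor NaCl, 181 to 218 CPM in overexpressor mock, 69.7 to 149 CPM in wild-type NaCl and 139 to 226 CPM in wild-type mock. MYB60 and HT1 had at most 6.75 CPM in any library. The part of these markers in the channel results was not tested. The vacuolar anion exchanger CLCA (AT5G40890), which stores nitrate, and CLC-C (AT5G49890), which stores chloride, were called in neither genotype. CLCA was at log2 -0.65 in the overexpressor (adjusted p = 0.183) and -0.72 in wild type (adjusted p = 0.0946). It was called in the overexpressor without overexpressor NaCl replicate 3 (log2 -1.06, adjusted p = 0.0443), and in wild type without overexpressor NaCl replicate 1 (0.0498) or 3 (0.0482). CLC-C was at log2 -0.35 (adjusted p = 0.0649) and -0.27 (adjusted p = 0.0913). In the overexpressor CLC-C was called with the block (0.0438), with DESeq2 (0.0324) and without wild-type mock replicate 2 (0.0406), and in wild type without wild-type mock replicate 2 (0.026).

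**Figure D3:**
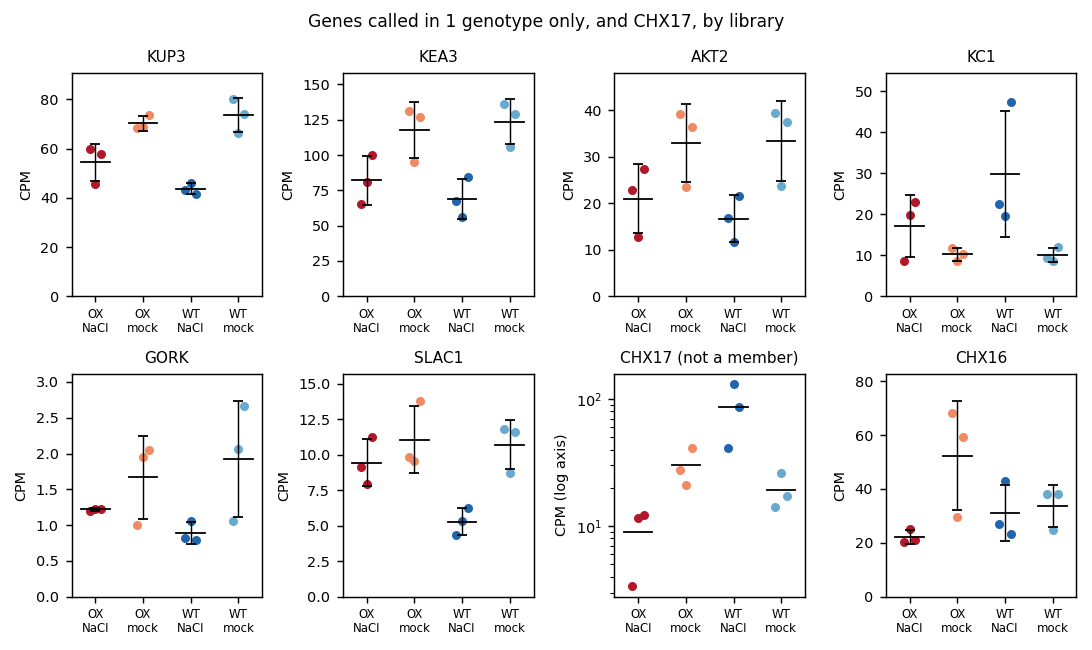
CPM in each library (points) for 7 of the genes called in 1 genotype only and for CHX17, an exchanger outside the list, with the group mean (line) and, on linear axes, ± 1 SD (n = 3). The CHX17 axis is logarithmic. SLAC1 lies at 4.30 to 6.22 CPM in wild-type NaCl, below the 8.70 to 11.8 CPM of wild-type mock, and CHX16 lies at 20.3 to 25.1 CPM in overexpressor NaCl, below the 29.5 to 68.4 CPM of overexpressor mock.

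The proton pumps AVP1 (AT1G15690), AHA1 (AT2G18960) and AHA3 (AT5G57350) had the highest group means per kb of exon of the 49 genes, though AHA3 did not stand apart from the next gene in 3 of 4 groups. AVP1, the vacuolar proton pyrophosphatase, had 910.1, 847 and 911 CPM in overexpressor NaCl, against 1013, 1128 and 985 CPM in overexpressor mock. It had 741, 636 and 668 CPM in wild-type NaCl, against 1214, 1293 and 960.5 CPM in wild-type mock. All NaCl libraries lay below all mock libraries in each genotype, by a wider gap in wild type. AVP1 fell 1.70-fold in wild type (log2 -0.76, SE 0.134, adjusted p = 0.00134), and in the overexpressor it was at log2 -0.23 (SE 0.134, adjusted p = 0.256). The difference between the responses was log2 0.53 (SE 0.189) and was not called (adjusted p = 0.246).

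The plasma membrane pumps AHA1, AHA2 (AT4G30190), AHA3 and AHA11 (AT5G62670) gave 1 call in each genotype. AHA2, with AHA1 the main pump of the plasma membrane, had 281, 225 and 198 CPM in overexpressor NaCl, against 530.4, 323 and 479 CPM in overexpressor mock. It had 321, 379.9 and 251 CPM in wild-type NaCl, against 291, 207 and 265 CPM in wild-type mock. Its mean was highest in overexpressor mock, though replicate 2 there (323 CPM) lay below wild-type NaCl replicate 2 (379.9 CPM). No overexpressor mock library met overexpressor NaCl, and the wild-type groups overlapped. AHA2 fell 1.89-fold in the overexpressor (log2 -0.92, SE 0.231, adjusted p = 0.0217), a call lost without overexpressor mock replicate 1 (0.0891), mock replicate 3 (0.074), NaCl replicate 2 (0.0658) or NaCl replicate 3 (0.0674). In wild type it was at log2 0.32 (SE 0.229, adjusted p = 0.288).

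AHA3, a pump of phloem companion cells, averaged 345 ± 57.3 CPM in overexpressor NaCl and 457 ± 6.66 CPM in overexpressor mock (SD, n = 3 each), and 346 ± 30.3 CPM in wild-type NaCl and 506 ± 31.3 CPM in wild-type mock. It fell in wild type (log2 -0.55, SE 0.139, adjusted p = 0.00972). In the overexpressor it was at log2 -0.40 (adjusted p = 0.0673) and was called with the block (0.0312), with upper quartile factors (0.0324) and with DESeq2 (0.0165). Of the phloem markers given beside AKT2, 4 of 5 fell in wild type, as AHA3 did, and APL did not. The part of these markers in the AHA3 result was not tested. AHA1 was at log2 -0.31 in the overexpressor (adjusted p = 0.0622, but 0.0349 with the block and 0.00254 with DESeq2) and at log2 -0.03 in wild type (adjusted p = 0.843). AHA11 was at log2 0.16 in the overexpressor (adjusted p = 0.679) and -0.41 in wild type (adjusted p = 0.188, but 0.0213 with the block). The 4 AHA genes summed to 1234 to 1311 CPM in overexpressor NaCl against 1575 to 1860.4 CPM in overexpressor mock, and to 1341 to 1516 CPM in wild-type NaCl against 1494 to 1622 CPM in wild-type mock.

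**Figure D4:**
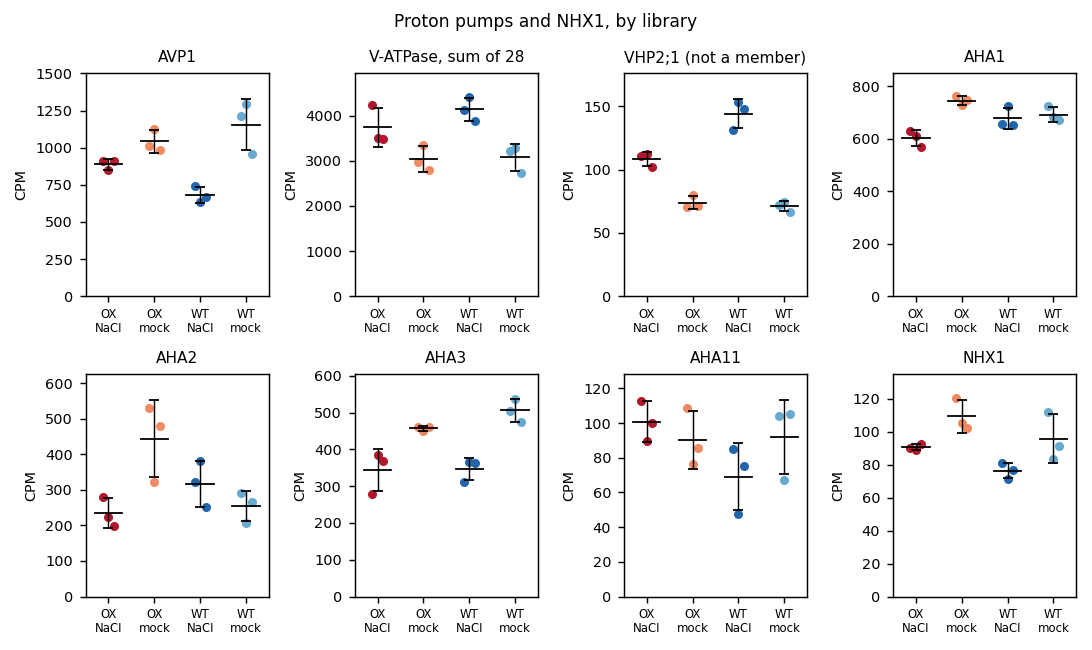
CPM in each library (points) for AVP1, the sum of 28 vacuolar ATPase subunit genes, VHP2;1, 4 AHA pumps and NHX1, with the group mean (line) and ± 1 SD (n = 3). AVP1 is at 636 to 741 CPM in wild-type NaCl, against 960.5 to 1293 CPM in mock. In the overexpressor, where its change was not called, it is at 847 to 911 CPM in NaCl, against 985 to 1128 CPM in mock. The vacuolar ATPase sum, which was not tested as a sum, is 3477 to 4407 CPM in NaCl, against 2732 to 3355 CPM in mock over both genotypes.

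Divided by exon length, AVP1 ranked first of the 49 genes in every group, at 292 ± 12.0 CPM per kb of exon in overexpressor NaCl, 342 ± 24.8 in overexpressor mock, 223 ± 17.6 in wild-type NaCl and 379 ± 57.0 in wild-type mock (SD, n = 3). It held 25.3%, 26.2%, 20.4% and 29.5% of the list's summed level per kb in these groups. AHA1 held rank 2 and AHA3 rank 3 by the mean of each group, at 132 ± 6.86 and 95.7 ± 16.0 CPM per kb in overexpressor NaCl. The ± SD ranges of AHA1 and AHA3 met in wild-type mock (151 ± 6.16 and 140.3 ± 8.75 CPM per kb) and were separate in the other groups. Those of AHA3 and the gene at rank 4 met in 3 groups: SLAH3 had 76.2 ± 35.0 CPM per kb in overexpressor NaCl, and AHA2 had 120.1 ± 29.2 in overexpressor mock and 85.8 ± 17.4 in wild-type NaCl, where AHA3 had 127 ± 1.86 and 96.1 ± 8.5. SLAH3 held rank 4 in overexpressor NaCl and rank 23 in overexpressor mock, and rank 5 in wild-type NaCl and rank 17 in wild-type mock. HAK5 held rank 48 in both NaCl groups, against rank 35 in overexpressor mock and rank 38 in wild-type mock, and HKT1 ranked last in every group. Exon length here is the union of all annotated exons, so a gene with long rare isoforms is ranked too low.

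Genotype called no listed gene under either treatment in the edgeR test with TMM factors and no replicate block. In mock leaves 0 of 47 genes were called, where 0.101% of all genes were (0.0635% higher, 0.0371% lower), and 4 (8.51%) had an unadjusted p under 0.05 in edgeR, against 7.34% of all genes: HAK5, CHX18 and AHA2 higher and NHX4 lower. DESeq2 called 1 of them, CHX18. Groups did not overlap for 10 of 47 genes, where 15.7% of all genes did not. CHX18 had 4.83, 6.93 and 7.88 CPM in overexpressor mock, against 2.91, 4 and 2.91 CPM in wild-type mock. The groups did not overlap (log2 1, SE 0.230, adjusted p = 0.19; DESeq2 adjusted p = 0.0263). HAK5 was at log2 0.82 (SE 0.299, adjusted p = 0.536), AHA2 at log2 0.80 (SE 0.230, adjusted p = 0.353) and NHX4 at log2 -0.40 (SE 0.154, adjusted p = 0.617), and for each of these 3 genes the groups did not overlap.

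In NaCl leaves, too, 0 of 47 genes were called, where 4.39% of all genes were (2.07% higher, 2.32% lower). An unadjusted p under 0.05 in edgeR was found for 8 genes (17%), against 22.3% of all genes in either direction. All 8 were higher in the overexpressor: CBL10, NHX4, KUP3, AT1G60160, KEA1, AHA11, AVP1 and SLAC1. No share of all genes by direction is given for this, so the shared direction is not read as a property of the list. Groups did not overlap for 8 of 47 genes, where 25.9% of all genes did not. SLAC1 came closest, at 9.11, 7.92 and 11.2 CPM in overexpressor NaCl, against 4.30, 5.30 and 6.22 CPM in wild-type NaCl (log2 0.83, SE 0.213, adjusted p = 0.0526). DESeq2 called 1 gene, SLAC1 (log2 0.81, adjusted p = 0.0143), which edgeR also called with upper quartile factors (0.045) and without wild-type mock replicate 2 (0.049). With the replicate block edgeR called 4 of 47 genes, all higher: CBL10, KUP8, AHA11 and SLAC1. That is 8.51%, against 12.4% of all genes in either direction, and again no share by direction is given. AVP1 had 910.1, 847 and 911 CPM in overexpressor NaCl, against 741, 636 and 668 CPM in wild-type NaCl; the groups did not overlap, and the difference was not called (log2 0.38, SE 0.134, adjusted p = 0.129). Markers of guard cells, mesophyll and epidermis were also higher in the overexpressor in this comparison. The 5 phloem markers went both ways (log2 -0.34 to 0.59, none called). The 5 guard cell markers had log2 differences of 0.31 to 0.91 and the 4 mesophyll markers 0.26 to 0.64, none called, and of 2 epidermis markers FDH was called (log2 0.74, SE 0.182, adjusted p = 0.0472) and ATML1 was not (log2 0.62, adjusted p = 0.131). Their part in the results of the listed genes was not tested.

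The test of whether the NaCl response differed between the 2 genotypes called 0 of 47 listed genes and 0% of all genes (0 of 18886). With the replicate block edgeR again called 0 of 47, but 379 genes (2.01%) in all. Without the block 8 of the 47 (17%) had an unadjusted p under 0.05 in edgeR, against 13.7% of all genes. DESeq2 called 1 of these 8, AHA2, among 658 genes in all. AHA2 had the largest difference, log2 -1.24 (SE 0.325, adjusted p = 0.133; DESeq2 log2 -1.27, adjusted p = 0.0167). The other 7 were NHX4, KUP3, AT1G60160, CHX16, CHX18, AVP1 and SLAC1. Genes called in 1 genotype and not in the other are therefore not shown to respond differently.

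Other genes of ion transport were read from 7 further lists of 95 genes, of which 60 were tested. Between NaCl and mock, 15 of 60 were called in the overexpressor (9 higher, 6 lower) and 28 of 60 in wild type (20 higher, 8 lower). This is 25% and 46.7% against the 18.3% and 41.4% of all genes. Of the vacuolar ATPase, the other proton pump of the vacuole, 5 of 26 tested subunit genes rose and 0 fell in the overexpressor, and 12 of 26 rose and 0 fell in wild type. These are 19.2% and 46.2% of the subunit genes, where 9.72% and 20.3% of all genes rose. The largest wild-type rises were in the subunits VHA-G2 (log2 1.05, SE 0.119, adjusted p = 0.00012), VHA-c1 (log2 0.70, adjusted p = 0.00356) and VHA-D (log2 0.65, adjusted p = 0.0016), which were at log2 0.50, 0.62 and 0.44 in the overexpressor (adjusted p = 0.0172, 0.0179 and 0.029). VHP2;1, a pyrophosphatase of the Golgi, rose by log2 0.55 in the overexpressor (adjusted p = 0.00759) and log2 1.02 in wild type (adjusted p = 8.95e-05), where AVP1 fell. Its relative VHP2;2 rose in the overexpressor (log2 0.93, adjusted p = 0.0234) and was at log2 0.26 in wild type (adjusted p = 0.41).

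The potassium channels TPK3 and TPK5 fell in both genotypes, by log2 0.75 and 0.92 in the overexpressor and by log2 0.80 and 0.79 in wild type (adjusted p = 0.0046, 0.0032, 0.000774 and 0.00161). SLAH2, a nitrate channel related to SLAH3, rose by log2 1.53 in the overexpressor (adjusted p = 0.0332) and log2 2.24 in wild type (adjusted p = 0.00174). KEA6, a K+/H+ antiporter, rose by log2 0.60 in the overexpressor (adjusted p = 0.0131) and 0.61 in wild type (adjusted p = 0.00427). Of 11 tested CBL sensors and kinases that act on transporters, 3 fell in the overexpressor, and 3 fell and 1 rose in wild type. These calls are 27.3% and 36.4% of the 11, against 18.3% (8.55% lower) and 41.4% of all genes. The gene that rose was the kinase CIPK8, with log2 0.80 in wild type (adjusted p = 0.00388). Its change of log2 0.37 in overexpressor leaves was not called. CIPK6, a kinase that works with CBL sensors, fell by log2 1.1 in the overexpressor (adjusted p = 0.0038) and log2 1.13 in wild type (adjusted p = 0.000741), and CBL2, a calcium sensor at the vacuole, by log2 0.47 (adjusted p = 0.0225) and log2 0.63 (adjusted p = 0.00212). Of the 5 other AHA pumps tested, AHA5 fell in wild type (log2 -0.58, adjusted p = 0.0386) and none was called in the overexpressor.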

How the data were processed

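The authors deposited raw counts of reads per gene for 12 libraries, in a file named for HTSeq, and these counts were used as deposited. Per the labels' protocols, libraries were poly(A)-selected and strand-specific and were sequenced on an Illumina HiSeq. TopHat, Cufflinks and TAIR10 appear without versions in the submitters' processing notes. How the counting treated strand is not given in the sources used here. A second deposited table of normalised values was not used here. Left out were 7 entries with no gene name, which made up 0.382% to 0.897% of each library.

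Tests used edgeR 4.0.16 (R 4.3.3), quasi-likelihood with robust fitting, on all 12 libraries, with TMM factors, the filter on low counts by group, 1 model of 4 group means (8 residual degrees of freedom) and 5 contrasts. Benjamini-Hochberg adjustment covered 18886 genes, and the threshold was 0.05. The script was tested on simulated data for the wild-type salt comparison, with 200 of 18886 genes changed. It called 0% of 1.5-fold, 28% of 2-fold and 87.5% of 4-fold changes. False calls were 8.2% of those called at 2-fold and 5.41% at 4-fold. The real salt comparisons called many more genes, so these shares do not carry over to them. An SE is the size of the log2 change divided by the root of its F value. The common biological coefficient of variation was 0.249, which sets the precision together with the 3 libraries a group. Alternatives were RLE and upper quartile factors, no filter, DESeq2 1.42.0, the replicate block, only the groups compared, and leaving out each library.

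Same-numbered libraries deviated together, with correlations of deviations from the group means of 0.13 to 0.30 between overexpressor NaCl and mock, 0.35 to 0.45 between wild-type NaCl and mock, and 0.33 to 0.78 between overexpressor mock and wild-type mock, so the numbers were taken to pair these groups. The pairing comes from this check and not from the labels.

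The 49 genes and the other gene lists were chosen with earlier results of these data known. Values in every library are given for SOS1, SOS2, SOS3, CBL10, HKT1, NHX1, HAK5 and AVP1, and for each listed gene called with a log2 fold change of at least 1 in size and a mean of at least 1 CPM in the higher group. AHA2 was added to these after its values were seen. From each other list, up to 3 called genes a contrast could be named. Coordinates, exon lengths and the 250-base windows are from RefSeq's annotation of TAIR10.1, which held all 49 genes. Exons or introns of 18 listed genes met an antisense gene, and 4 met another sense gene. At 50 bases, 3 genes (TRH1, AHA1 and AHA2) shared any sequence with another place in the genome, at most 0.132% of their exon length. The files name some genes otherwise, such as KT1 for AKT1. The values of 1 listed gene are not reported here, and it stays in the counts over the list.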

Additional observations from a re-analysis of the deposited data

Results flagged for a closer look

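CHX17, a cation/H+ exchanger outside the 49 genes, had salt responses of opposite direction in the genotypes. It had 3.36, 11.5 and 12.2 CPM in overexpressor NaCl, against 27.7, 21.0 and 41.4 CPM in overexpressor mock. It had 41.4, 132 and 86.8 CPM in wild-type NaCl, against 14.1, 26.2 and 17.3 CPM in wild-type mock. All NaCl libraries lay below all mock libraries in the overexpressor and above them in wild type. It fell in the overexpressor (log2 -1.74, SE 0.524, adjusted p = 0.0432) and rose in wild type (log2 2.17, SE 0.516, adjusted p = 0.00699). The test of the difference, log2 -3.91 (SE 0.735), was not called by edgeR (adjusted p = 0.0757), but it was with the replicate block (0.0271), with DESeq2 (2.76e-05) and without wild-type NaCl replicate 1 (0.0448). Between the NaCl groups CHX17 was lower in the overexpressor (log2 -3.27, SE 0.546, adjusted p = 0.0182), which was lost with only those groups fitted (0.0662) and without wild-type NaCl replicate 2 (0.0608), wild-type NaCl replicate 3 (0.0674) or overexpressor NaCl replicate 3 (0.0621). The fall in the overexpressor was lost in 9 of 18 alternatives, with adjusted p up to 0.145.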

How the results depend on the processing

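The count of listed genes called with salt in the overexpressor was 10, and it became 18 with the replicate block and 7 to 11 with 1 library left out, lowest without overexpressor mock replicate 3. In wild type it was 20, with 16 to 23 over left-out libraries and 25 with the block (53.2%, against 51.1% of all genes). Between genotypes in mock, DESeq2 called 1 gene (CHX18) and no left-out library gave a call. Between genotypes in NaCl, upper quartile factors called 1, DESeq2 1 and the replicate block 4 (CBL10, KUP8, AHA11 and SLAC1), and left-out libraries gave 0 to 1. Same-numbered libraries of these 2 groups had correlations of -0.01 to 0.58, which did not show pairing between them directly. Each of the 2 was taken as paired with its own mock group, and the block covers all 12 libraries. For the interaction DESeq2 called 1 (AHA2), and left-out libraries gave 0. The block changed no other call of a listed gene than those named here and above. The causes were not tested.

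No called log2 fold change of a gene given by library turned its sign under any alternative. Over all genes, calls with 1 library left out were 1519 to 3634 in the overexpressor salt comparison (3449 with all libraries), 5921 to 8444 in wild type (7814), 3 to 18 between genotypes in mock (19), 45 to 1017 between genotypes in NaCl (829) and 0 to 73 for the interaction (0). In the same order they were 5327, 9650, 23, 2344 and 379 with the block, 4354, 8430, 196, 1763 and 658 with DESeq2, and, the interaction aside, 2227, 6713, 4 and 13 with only the groups compared. RLE factors gave 5 and no filter 8 for the interaction. Upper quartile factors moved the median log2 fold change of all genes in wild type to -0.09, against -0.01. Genes near 1 CPM, such as GORK and NHX3, and HAK5 in NaCl rest on few counts.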
